A study of Mus musculus with 29 samples.

Results

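Active and primed regulatory chromatin were compared in wild-type adult microglia, the resident macrophages of the brain. The members are the genomic regions that carry 1 or both of 2 histone marks, H3K27ac and H3K4me1, each mapped in 2 libraries by CUT&RUN, an assay in which an antibody directs a micrococcal nuclease to chromatin and the released DNA is sequenced. These 4 libraries are among 25 of the series with a peak list. Consensus regions of a mark were merged regions found in both of its libraries, which gave 36697 H3K27ac regions and 49737 H3K4me1 regions. A region that shared at least 1 bp with a region of the other mark was placed in the class with both marks, and the remainder formed the H3K27ac-only class of 4859 regions and the H3K4me1-only class of 26836 regions. The class with both marks held 31838 H3K27ac regions and 22901 H3K4me1 regions, which fell into 22554 separate stretches of chromatin.

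The histone libraries came from cells of the strain label WT, sorted by FACS from brains of 3-month-old female mice. Those libraries had 20.2 and 15.4 M (mega) fragments for H3K27ac, and 14.5 and 14.1 M for H3K4me1. Further readouts were IRF8 peaks from microglia of mice labelled IRF8-EGFP, mapped through the GFP tag at postnatal day 9 (P9, 4 libraries), at postnatal day 14 (P14, 3 libraries) and in adults (3 libraries), and adult lists of PU.1 (2 libraries of WT and 2 of IRF8KO, the label of the IRF8 knockout), H3K27ac (2 of IRF8KO) and H3K4me1 (2 of IRF8KO). All these mice were female, and the labels do not say whether the 2 libraries of a mark came from separate animals, so their spread may be technical. The adult IRF8, PU.1 and IRF8KO histone libraries likewise carried an age label of 3 months. Cells were crosslinked for the transcription factors and not for the histone marks, per the labels' protocols.

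H3K4me1 is a methyl mark placed on enhancers and around promoters, often before they are used, and a region with H3K4me1 alone is commonly called primed. H3K27ac is an acetyl mark of enhancers and promoters in use, and a region with both marks is commonly called active. In macrophages the ETS factor PU.1 is known to open such regions, with IRF8 as one of its partners at composite sites. These names describe the marks, and neither transcription nor enhancer activity was measured here.

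The sequences below show DNA at gene starts, named by the marks within 1 kb, and DNA in regions of each class. No filter for artefact signal was applied to these regions. The first 3 lines are the 250 bases before the RefSeq start of a gene (build GRCm38.p6, on the strand of the gene), for P2ry12, a purine receptor of microglia whose start carried both marks (chr3:59262986-59263235), Sall1, a transcription factor of microglial identity whose start carried H3K27ac only (chr8:89044163-89044412), and Pax6, a transcription factor of eye and neural development whose start carried H3K4me1 only (chr2:105668646-105668895). The last 3 lines are 300-base windows of the strongest region of each class near a named gene, on the plus strand: an intron of Sfi1 (both marks, chr11:3156522-3156821), the bases next to the start of Psmb5 (H3K27ac only, chr14:54618023-54618322) and an intron of Ppp1r16b (H3K4me1 only, chr2:158724067-158724366). Capitals mark CpG dinucleotides.
P2ry12 promoter: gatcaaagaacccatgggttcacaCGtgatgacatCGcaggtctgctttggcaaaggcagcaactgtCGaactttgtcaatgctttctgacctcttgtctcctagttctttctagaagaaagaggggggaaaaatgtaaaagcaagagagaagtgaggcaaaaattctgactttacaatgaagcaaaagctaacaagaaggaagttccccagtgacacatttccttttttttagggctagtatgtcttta
Sall1 promoter: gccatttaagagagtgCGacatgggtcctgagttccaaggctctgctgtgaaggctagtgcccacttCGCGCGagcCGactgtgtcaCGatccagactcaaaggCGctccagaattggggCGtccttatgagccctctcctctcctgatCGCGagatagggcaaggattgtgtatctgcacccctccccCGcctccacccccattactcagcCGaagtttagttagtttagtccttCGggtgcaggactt
Pax6 promoter: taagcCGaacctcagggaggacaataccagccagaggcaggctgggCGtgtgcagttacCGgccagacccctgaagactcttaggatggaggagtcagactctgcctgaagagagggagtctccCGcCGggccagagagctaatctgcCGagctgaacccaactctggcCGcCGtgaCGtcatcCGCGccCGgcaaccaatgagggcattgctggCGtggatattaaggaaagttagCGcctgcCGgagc
Sfi1 intron: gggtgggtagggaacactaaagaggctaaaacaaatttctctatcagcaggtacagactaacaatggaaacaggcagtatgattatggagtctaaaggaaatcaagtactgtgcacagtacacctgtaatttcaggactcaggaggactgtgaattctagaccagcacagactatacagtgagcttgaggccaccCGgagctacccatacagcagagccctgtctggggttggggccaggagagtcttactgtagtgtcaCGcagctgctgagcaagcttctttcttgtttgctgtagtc
Psmb5 start: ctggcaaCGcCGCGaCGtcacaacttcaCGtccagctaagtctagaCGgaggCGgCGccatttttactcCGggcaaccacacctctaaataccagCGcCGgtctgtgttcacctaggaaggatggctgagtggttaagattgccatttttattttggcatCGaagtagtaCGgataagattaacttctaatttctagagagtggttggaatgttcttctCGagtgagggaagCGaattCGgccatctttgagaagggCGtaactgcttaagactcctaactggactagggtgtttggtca
Ppp1r16b intron: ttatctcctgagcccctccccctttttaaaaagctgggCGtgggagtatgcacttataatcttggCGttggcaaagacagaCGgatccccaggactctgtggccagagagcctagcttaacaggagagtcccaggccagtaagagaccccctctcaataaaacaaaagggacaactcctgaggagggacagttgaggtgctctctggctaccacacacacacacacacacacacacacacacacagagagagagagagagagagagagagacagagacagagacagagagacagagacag
The P2ry12 stretch held 3 CpGs, that of Sall1 13 and that of Pax6 15. The Psmb5 window held 17 CpGs, against 2 in the Sfi1 window and 3 in the Ppp1r16b window. The starts of Sall1 and Pax6 thus resembled each other in CpG content, with observed-over-expected ratios of 0.66 and 0.65. Within 1 kb they carried opposite single marks, although the acetylated region at the Sall1 start was of the class with both marks.

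Most acetylated regions were methylated as well, whereas the share of methylated regions with acetylation was lower and depended on how the lists were combined. Of the H3K27ac regions, 86.8% overlapped an H3K4me1 region, and of the H3K4me1 regions 46.0% overlapped an H3K27ac region. Pairs of single libraries gave lower shares: over the 4 pairings of 1 list of each mark, 63.8% to 74.7% of H3K27ac regions met an H3K4me1 region, and 24.8% to 34.7% of H3K4me1 regions met an H3K27ac region. The order of the 2 shares was the same in every pairing, but their sizes depended on the consensus step. With a single H3K4me1 list against the H3K27ac consensus, 24.7% (library 1) and 19.7% (library 2) of H3K4me1 regions had H3K27ac. With a single H3K27ac list against the H3K4me1 consensus the share was higher, 55.3% without H3K27ac library 1 and 60.7% without library 2, so whether most H3K4me1 regions lacked H3K27ac was not settled by these lists. With lists of equal length it was 57.7%. By length the asymmetry was larger, since 88.6% of H3K27ac bases lay inside H3K4me1 regions and 28.8% of H3K4me1 bases lay inside H3K27ac regions. Among H3K27ac regions with both marks, 81.1% lay wholly inside H3K4me1, and the acetylated part of an H3K4me1 region with both marks had a median of 43.4% of its length. A single H3K4me1 region could hold several acetylated ones: 5591 held 2 or more, and the largest number was 24. No test between the marks was made, because 2 against 2 libraries cannot reach an exact p of 0.05.

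The single-mark classes were partly regions in which the other mark was listed in 1 library. At 36.9% of the H3K27ac-only regions an H3K4me1 region was listed in library 1, at 20.5% in library 2, and at 43.4% (2107 regions) in neither. At 27.4% of the H3K4me1-only regions H3K27ac was listed in library 1, at 17.5% in library 2, and at 61.0% (16373 regions) in neither. H3K27ac-only regions were near methylated chromatin, with a median gap of 4782 bp to the nearest H3K4me1 region, whereas the median gap from an H3K4me1-only region to the nearest H3K27ac region was 26.4 kb. Under 1000 bp, the shortest H3K4me1 region the authors' call allowed, were 47.7% of H3K27ac-only regions and 17.99% of H3K27ac regions with both marks. The part of that length limit in the H3K27ac-only class was not tested.

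Regions with a single mark were narrower than regions with both. H3K27ac regions had a median width of 1821 bp with both marks and 1029 bp alone, and H3K4me1 regions 5082 bp with both marks and 2894 bp alone. The ratio of alone to both was therefore 0.57 for each mark. In the single lists, split by the consensus of the other mark, it was 0.50 and 0.44 for H3K27ac (libraries 1 and 2; 0.47 ± 0.04, SD, n = 2) and 0.39 and 0.42 for H3K4me1 (0.41 ± 0.02, n = 2), so that it stayed below 1 in all 4 libraries. The widest H3K4me1 region, of 160276 bp, had both marks, and the widest H3K4me1-only region had 43805 bp.

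**Figure D1:**
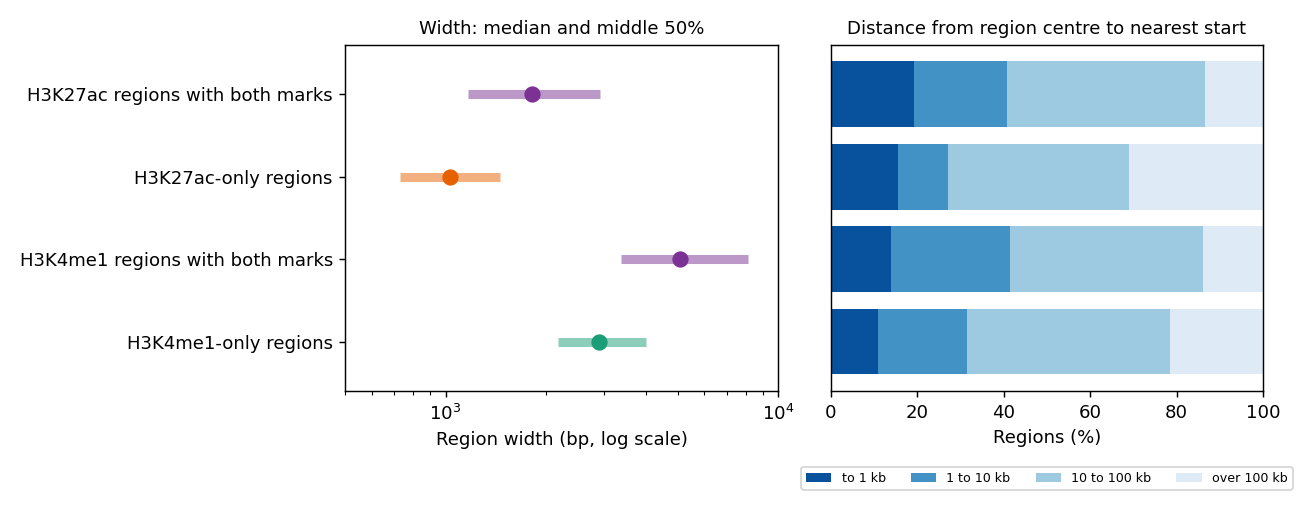
Width (left; dot, median; bar, middle 50% of regions; log axis in bp) and distance from the region centre to the nearest transcription start (right; share of regions in %) for the H3K27ac and H3K4me1 consensus regions with both marks and with 1 mark. Regions with 1 mark were narrower, and 31.1% of H3K27ac-only regions lay over 100 kb from a start against 13.4% of H3K27ac regions with both marks.

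Over all regions, single-mark regions lay farther from genes, but the order turned among strong regions. The median distance from the region centre to the nearest start of a protein-coding transcript was 16.0 kb for H3K27ac regions with both marks and 38.6 kb for H3K27ac-only regions, and 15.7 kb and 25.1 kb for the H3K4me1 regions with both marks and alone. Over 100 kb from any start were 31.1% of H3K27ac-only regions against 13.4% with both marks, and 21.6% of H3K4me1-only regions against 13.96%. In the strongest of 5 equal groups by the authors' −log10 p-value the order of the medians was the opposite, at 0.62 kb for H3K27ac-only regions and 16.2 kb with both marks, and at 21.2 kb for H3K4me1-only regions and 23.5 kb with both marks. For H3K27ac it was also the opposite in the group next to the strongest, at 6.30 kb alone and 13.2 kb with both marks. Over all regions the single lists gave the same order as the consensus, with 29.7% and 29.8% of H3K27ac-only regions and 13.7% and 13.9% of those with both marks beyond 100 kb. Intergenic regions made up 41.6% of the H3K27ac-only class, 32.7% of the H3K4me1-only class, and 25.6% and 27.5% of the H3K27ac and H3K4me1 regions with both marks.

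Close to starts the picture depended on how strong a region was. Strength is here the mean, over the 2 libraries, of the percentile of a region within its own list by the authors' −log10 p-value. Centred within 1 kb of a start were 19.3% of H3K27ac regions with both marks and 15.6% of H3K27ac-only regions, a difference of -3.72 percentage points, and 13.9% and 11.0% of H3K4me1 regions with both marks and alone, a difference of -2.84 percentage points. Regions of each mark were ranked into 5 equal groups of strength. In the weakest group of H3K27ac regions 8.07% of the H3K27ac-only class and 11.2% of the class with both marks were at starts. In the group next to the strongest the values were 43.4% of 341 and 24.7%, and in the strongest group 51.5% of 103 H3K27ac-only regions and 21.4% of 7237 with both marks. With the strongest 50% of each list, the difference for H3K27ac was 20.2 percentage points, in the opposite direction. For H3K4me1 the strongest group likewise had 13.4% of H3K4me1-only regions and 4.69% of regions with both marks at starts, while the weakest group had 6.04% and 23.6%. These shares use the region centre, and in the strongest groups regions with both marks were wider. Their medians were 6404 bp against 3613 bp for H3K4me1 and 3488 bp against 1341 bp for H3K27ac. With any overlap of the start window, the differences over all regions were -15.9 percentage points for H3K4me1 and -6.99 for H3K27ac. The part of width in the order by strength was not tested. Each single library also moved the differences: the H3K27ac one was -10.3 and -8.44 percentage points without H3K27ac library 1 and 2, and -0.70 and -8.69 without H3K4me1 library 1 and 2, and the H3K4me1 one was -1.80 and -4.17, and -9.70 and -8.96, in the same order. The small overall differences near starts therefore have no fixed direction.

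**Figure D2:**
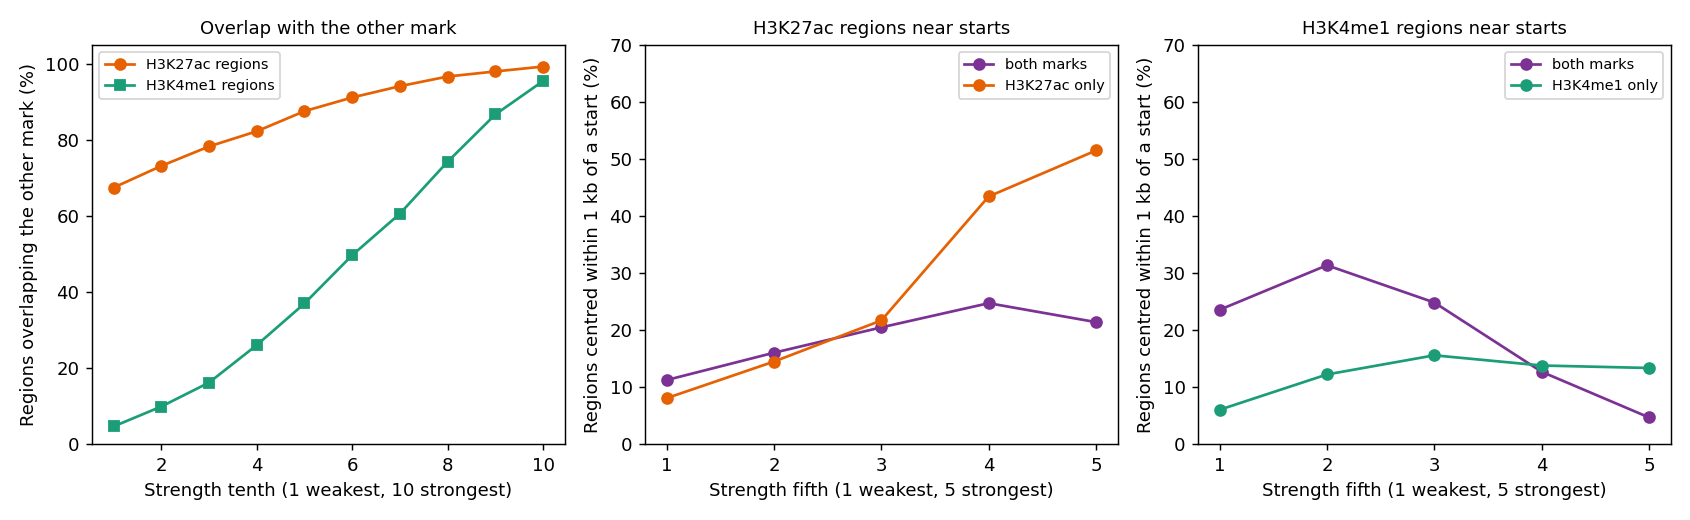
Left, share of H3K27ac and H3K4me1 regions that overlap the other mark (%) in 10 equal groups of strength. Middle and right, share of regions (%) whose centre lay 1 kb or less from a start, in 5 equal groups of strength, for H3K27ac and H3K4me1 regions with both marks and with 1 mark; in the strongest group, 51.5% of H3K27ac-only regions and 21.4% of H3K27ac regions with both marks were at starts.

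Overlap itself followed strength. From the weakest to the strongest of 10 equal groups of H3K27ac regions the share with H3K4me1 ran from 67.4% to 99.2%, and over the 10 groups of H3K4me1 regions the share with H3K27ac ran from 4.68% to 95.4%. Width showed the same order, with 17.0% of the narrowest and 91.4% of the widest of 10 equal groups of H3K4me1 regions acetylated. The H3K4me1 lists contain many weak regions: their headers state a threshold of p 0.01 with a weak threshold of p 0.1 for joined flanks, and 42.9% and 59.0% of the regions in libraries 1 and 2 had a mean −log10 p below 2, the value of p 0.01. Without those regions, a choice made after the values were seen, 31892 H3K4me1 consensus regions were left, of which 64.1% had H3K27ac, and the H3K4me1-only class held 11461 regions and the H3K27ac-only class 7409.

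The strongest H3K27ac-only regions near a named gene were mostly gene starts. They were the starts of Psmb5, a subunit of the proteasome (chr14:54617214-54618566, authors' fold enrichment 14.2 and 22.6 in libraries 1 and 2), Zpr1, a zinc finger protein (chr9:46272610-46273370, 12.6 and 19.3), Cbr4, a carbonyl reductase (chr8:61487685-61488982, 12.3 and 13.1), and Itfg2 (chr6:128423918-128425258, 15.4 and 12.1), together with an intergenic region 6.99 kb from the start of Klrb1a, a lectin-like receptor of natural killer cells (chr6:128630148-128630895, 15.6 and 14.2). At all 4 starts H3K4me1 was listed in library 1 but not in library 2, and at the Klrb1a region it was listed in neither. The strongest H3K4me1-only regions were an intron of Ppp1r16b 43.9 kb from the start of Fam83d (chr2:158722505-158725929, fold enrichment 6.02 and 5.16), intergenic regions near Cym (chr3:107203462-107206432, 6.70 and 4.05), Bicdl2 (chr17:23652567-23656873, 5.52 and 3.87) and Atl2 (chr17:79953864-79956636, 5.04 and 3.95), and a region at an internal start of Enpp2, the enzyme autotaxin (chr15:54918418-54923518, 5.66 and 3.90). H3K27ac was listed at each of these 5 in 1 of the 2 libraries. The strongest regions with both marks included the start of Hjurp, a chaperone of centromeric histone (chr1:88276297-88278217, 14.2 and 12.7), an intron of Gpa33 (chr1:166135896-166141830, 21.3 and 28.8) and a region 37.6 kb from Csf2ra (chr19:61265110-61266911, 8.84 and 8.58). The other 2 lay in introns of Sfi1 (chr11:3153881-3158957 and chr11:3173004-3177226). The first Sfi1 region had a pileup of 614 and 585 at fold enrichments of 8.97 and 9.27. Both Sfi1 regions also held a peak in all 3 adult IRF8, both WT PU.1 and all 4 IRF8KO histone lists. Pileups were 274 and 269 at the second Sfi1 region, 250 and 277 at that near Csf2ra, 138 and 114 at Hjurp, and 68 and 87 at Gpa33. Regions of artefact signal were not filtered out here, and their part among these strongest regions was not tested.

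At gene starts, most listed genes of homeostatic microglia carried both marks and most listed developmental regulators of other lineages H3K4me1 alone. The state of a gene was read within 1 kb of its annotated 5′ end. It can differ from the class of a region there, which may meet the other mark outside this window. Over all 21938 protein-coding genes 31.0% of starts had both marks, 3.80% H3K27ac only, 20.7% H3K4me1 only and 44.5% neither. Of 22 genes of homeostatic microglia, 19 had both marks at the start, so that H3K27ac was at 19 against 34.8% of all starts, and H3K4me1 at 21 against 51.7%. Among these 19, H3K27ac was listed within the window in library 1 only at C1qa and in library 2 only at Aif1. P2ry12 showed authors' fold enrichments of 10.8 and 11.8 for H3K27ac and 4.05 and 3.49 for H3K4me1, with 54.3 kb of H3K27ac and 64.3 kb of H3K4me1 over the gene and 10 kb on either side. Cst3, the protease inhibitor cystatin C, showed 13.3 and 17.0 for H3K27ac and 5.71 and 4.17 for H3K4me1. Csf1r, the receptor on which microglia depend for survival, had 8.29 and 14.2 for H3K27ac and 4.53 and 3.62 for H3K4me1. The remaining 3 were Selplg and Sparc, with H3K4me1 only at the annotated 5′ end, and Tmem119, with neither. H3K27ac was listed at the Selplg start in both libraries (3.70 and 4.25) without a shared region in the window, at Sparc in library 1 (3.26) and at Tmem119 in library 2 (2.86). Read over all protein-coding transcript starts of a gene, Selplg and Sparc had both marks as well. All 22 loci held a region with both marks, against 52.7% of all loci.

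Among transcription factors of macrophages both marks were present at 14 of 21 starts, against 31.0% of all starts. These included Spi1, which encodes PU.1 (H3K27ac 10.5 and 12.1, H3K4me1 3.48 and 2.82), Mef2a (10.5 and 13.9, and 4.23 and 4.12), Runx1 and the early-response gene Egr1. H3K4me1 only was read at Irf8, Maf, Batf3 and Fos, 4 of 21 starts against 20.7% of all. At each of these 4 H3K27ac was listed in library 1 and not in library 2. The loci of Irf8 and Maf held no H3K4me1-only region, so the H3K4me1 regions at their starts were of the class with both marks. Sall1, which maintains microglial identity, was the only member with H3K27ac alone in the window (5.24 and 7.52), with no H3K4me1 there in either library. Its locus held 2 stretches with both marks and no H3K27ac-only region. The acetylated region at its start was therefore of the class with both marks, and met H3K4me1 outside the window. Mef2c and Cebpb had neither mark at the annotated 5′ end. Mef2c nevertheless lay in 130.2 kb of H3K27ac and 149.5 kb of H3K4me1, the largest acetylated length of any listed gene, and had both marks over its other starts.

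Genes known to be induced by inflammatory signals were read in the same way. Of 19, 12 had both marks, against 31.0% of all starts, including Il1a (8.64 and 11.5 for H3K27ac), Il6 (11.8 and 9.49), Tlr2 (8.64 and 10.8) and Tlr4 (14.8 and 15.0), the latter pair being receptors for bacterial products. Tnf, Il10, Nos2 and Ccl2 had H3K4me1 only, and these 4 of 19 are near the 20.7% of all starts. Tnf had H3K27ac at 3.08 in library 1 and none listed in library 2, Il10 none in library 1 and 4.51 in library 2, and Ccl2 2.88 in library 1 and none in library 2. Nos2, inducible nitric oxide synthase, had no H3K27ac at its start in either library and no H3K27ac consensus region in its locus, where library 1 alone listed one (4.63). Il12b, Ccl5 and Ptgs2 had neither mark in consensus, 3 of 19 against 44.5% of all starts. Among 16 genes associated with disease-related microglia, 12 had both marks, against the same 31.0% (Trem2 7.40 and 10.5, Tyrobp 10.5 and 13.6, Apoe 5.55 and 5.23 for H3K27ac). Spp1, Axl and Gpnmb had H3K4me1 only, 3 of 16 and near the 20.7% of all starts, and Ctsb had neither. The loci of Spp1 and Axl held no H3K4me1-only region, so the H3K4me1 regions at their starts were of the class with both marks. Gpnmb had no H3K27ac at its start in either library.

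Interferon-stimulated genes, the best known targets of IRF family factors, had a mark at all 18 starts, whereas 44.5% of all starts had neither. Both marks were at 13, against 31.0% of all starts, among them Mx1 (H3K27ac 12.4 and 14.1), Gbp2 (10.5 and 13.4) and Irf9 (5.86 and 9.81). Ifit2 and Stat2 had H3K27ac only, with H3K4me1 in library 1 alone, and Ifit1, Oasl2 and Ifitm3 had H3K4me1 only, each with H3K27ac in 1 library. Genes of MHC class II presentation showed both marks at 3 of 7 starts (H2-DMa, H2-DMb1 and Cd74, the invariant chain), beside 31.0% of all starts. At H2-DMa H3K27ac was listed within the window in library 1 only and H3K4me1 in library 2 only, since a merged region can reach the window through 1 library. H2-Aa and Ciita, the master regulator of the class, had H3K4me1 only, and H2-Ab1 and H2-Eb1 neither, although H2-Ab1 had both marks when all its transcript starts were read. H3K27ac was listed in exactly 1 library at 5 of these 7 starts, against 13.2% of all starts.

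Housekeeping genes were in all 4 states. Gapdh, Eef2 (a translation elongation factor), Rplp0 (a ribosomal protein) and Psmb2 (a proteasome subunit) had H3K27ac only, at 4 of 20 starts against 3.80% of all genes, and at each H3K4me1 was listed in library 1. Over all 834 H3K27ac-only starts, H3K4me1 was listed in 1 library at 74.7% and in neither at 22.9%. Read over all transcript starts, Gapdh and Rpl13a had both marks and Polr2a H3K4me1 only. Another 4, Rpl13a, Rps18, Tubb5 and Sdha, had H3K4me1 only, against 20.7% of all genes. Both marks were at 10, such as Actb and B2m, and Ppia and Polr2a had neither at the annotated 5′ end.

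Regulators of other lineages were listed as a further set. Hoxa9, Hoxd13, Pax6, Sox2, Foxa2, Neurog2, Nkx2-1 and Hand2 had H3K4me1 alone, 8 of 10 listed factors against 20.7% of all genes. H3K27ac was listed in neither library at any of the 10 starts, beside 51.7% of all starts with H3K27ac in neither. Over all genes, H3K27ac was in neither library at 54.7% of the 4549 H3K4me1-only starts, in 1 library at 41.2% and in both without a shared region in the window at 4.09%. Pax6 had 30.2 kb of H3K4me1 (fold enrichment 3.56 and 3.03 at the start), Hoxd13 18.6 kb and Hand2 16.9 kb, and no H3K27ac consensus region lay within 10 kb of any of the 10 genes, although 1 library listed H3K27ac in the loci of Hoxa9 (4.58), Pax6 (3.39), Gata4 (3.68) and Myod1 (3.27). H3K4me1 without H3K27ac was found at 9 of these loci, against 20.5% of all, and neither mark at 1, against 24.2%. Gata4 and Myod1 had neither mark at the annotated 5′ end, and Gata4 had H3K4me1 only over all its transcript starts. Neurog2, a proneural factor, had an H3K4me1 fold enrichment of 4.50 and 2.82.

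Markers of other brain cells were read in the same way. None of 10 neuronal starts had H3K27ac in either library, beside 51.7% of all starts with H3K27ac in neither. Tubb3 and Gad2 had H3K4me1 only, 2 of 10 and near the 20.7% of all starts. When all transcript starts were read, however, Camk2a and the endothelial Cdh5 had both marks and Gad1, Slc1a2 and Aldh1l1 H3K4me1 only. Of 8 astrocyte markers, Slc1a3 and Gja1 had both marks and the other 6 neither, and of 10 markers of the oligodendrocyte lineage Mbp, Mog and Cnp had both, Olig1, Olig2 and Pdgfra H3K4me1 only and 4, among them Mag, Mobp and Sox10, neither. H3K27ac was thus in consensus at 2 of 8 astrocyte and 3 of 10 oligodendrocyte starts, beside 34.8% of all starts. Endothelial Pecam1 and Kdr had both marks, 2 of 7 beside 31.0% of all starts. Cldn5, Flt1, Cdh5 and Esam had H3K4me1 only, 4 of 7 beside 20.7%, and Tek neither. Of 6 lymphocyte markers only Ms4a1 had both, beside the same 31.0%, each listed at its start in library 2 alone. Mbp, with 28.6 kb of H3K27ac, and Slc1a3, with 44.0 kb, exceeded every homeostatic gene but P2ry12 in acetylated length, while the starts of Mag and Mobp had no region of either mark in any of the 4 lists. The part of other cells in the marks at these starts was not tested. Among markers of other macrophages, Mrc1, Pf4 and Siglec1 had both marks, 3 of 12 beside 31.0% of all starts. F13a1, Gata6, Timd4, Ccr2 and Marco had H3K4me1 only, 5 of 12 beside 20.7%. Lyve1, Cd163, Ms4a7 and Clec4f had neither, 4 of 12 beside 44.5%. At Gata6, Timd4 and Ccr2, which mark peritoneal and monocyte-derived macrophages, H3K27ac was in neither library.

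**Figure D3:**
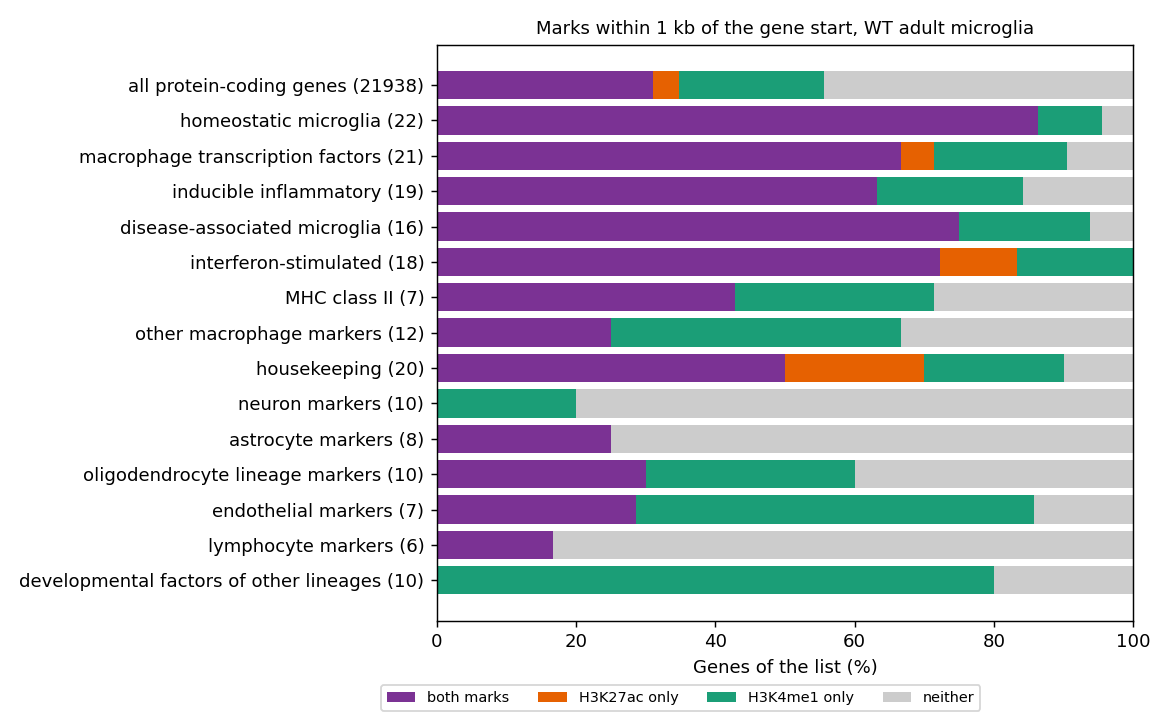
Share of genes (%) with both marks, H3K27ac only, H3K4me1 only or neither within 1 kb of the annotated 5′ end, for all protein-coding genes and 14 gene lists (number of genes in brackets). Both marks were at 19 of 22 homeostatic microglia genes and at none of 10 developmental factors, 8 of which had H3K4me1 only.

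CpG content separated starts with any mark from starts with none more than it separated the classes. The median observed-over-expected CpG ratio was 0.79 at starts with both marks, 0.79 with H3K27ac only, 0.71 with H3K4me1 only and 0.24 with neither. Away from starts, beyond 1 kb, region centres of all 4 sets had medians between 0.16 and 0.19.

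Large numbers of single-mark regions lay in very long genes. The most H3K4me1-only regions within a gene and 10 kb around it were at Csmd3 (41 over 1211 kb), Fgfr2 (39 over an annotated span of 2961 kb), Pde4d (33), Zbtb20 (32), Dlg2 (26), Fhit (26), Diaph2 (25), Inpp4b (23), Macrod2 (23) and Magi2 (23), several of which are mainly known from neurons. The most H3K27ac-only regions were at Pard3b (35 over 1003 kb), Ctnnd2 (26), Abca13 (16), Fat3 (16), Rbfox1 (16), Fhit (15), Hdac9 (14), Aig1 (10), Klf12 (10) and Prim2 (10). Of these 10, Pard3b, Ctnnd2, Abca13 and Prim2 held more H3K27ac-only regions than regions with both marks (34, 14, 11 and 8). Csmd3 and Dlg2 held 1 and 0 H3K27ac-only regions, and only Fhit was in both sets.

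The X chromosome stood apart. Of 1980 H3K4me1 regions on X, 24.4% had H3K27ac, against 43.5% to 50.5% on the 19 autosomes. H3K27ac regions numbered 4.23 per Mb on X and 12.2 to 17.8 per Mb on autosomes, and H3K4me1 regions 11.6 against 17.3 to 22.7. Both H3K4me1 libraries showed the gap, with 11.0% on X and 25.4% on autosomes in library 1 and 6.39% and 20.6% in library 2. X-linked H3K4me1 regions were also weaker, with a median strength percentile of 59.5 against 73.3. Within the percentiles from 50 to 80 the acetylated share was 20.5% on X and 35.7% on autosomes, and from 80 upward 68.1% and 80.4%. Median strength within these 2 ranges was 65.4 against 67.5, and 86.8 against 90.4. The part of strength in the gap was not tested. Conversely, 89.6% of the 724 H3K27ac regions on X had H3K4me1, inside the autosomal range of 80.2% to 90.4%. The density of H3K27ac list regions on X was 0.30 and 0.37 of the autosomal density in the WT libraries and 0.32 and 0.44 in the IRF8KO libraries. For H3K4me1 it was 0.71 and 0.96 in WT and 0.44 and 0.74 in IRF8KO, and for adult IRF8 it was 0.24, 0.31 and 0.43 and for WT PU.1 0.47 and 0.38, so a lower density on X was not limited to H3K27ac. Both marks were at 14.8% of X-linked starts and 32.0% of autosomal starts. Gpr34 (H3K27ac 6.48 and 7.85), Hprt (7.71 and 7.20) and Pgk1 (4.63 and 6.54) were X-linked genes with both marks. These cells are female, in which 1 X chromosome is silenced, and the mice's 2 X chromosomes cannot be told apart in peak lists.

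**Figure D4:**
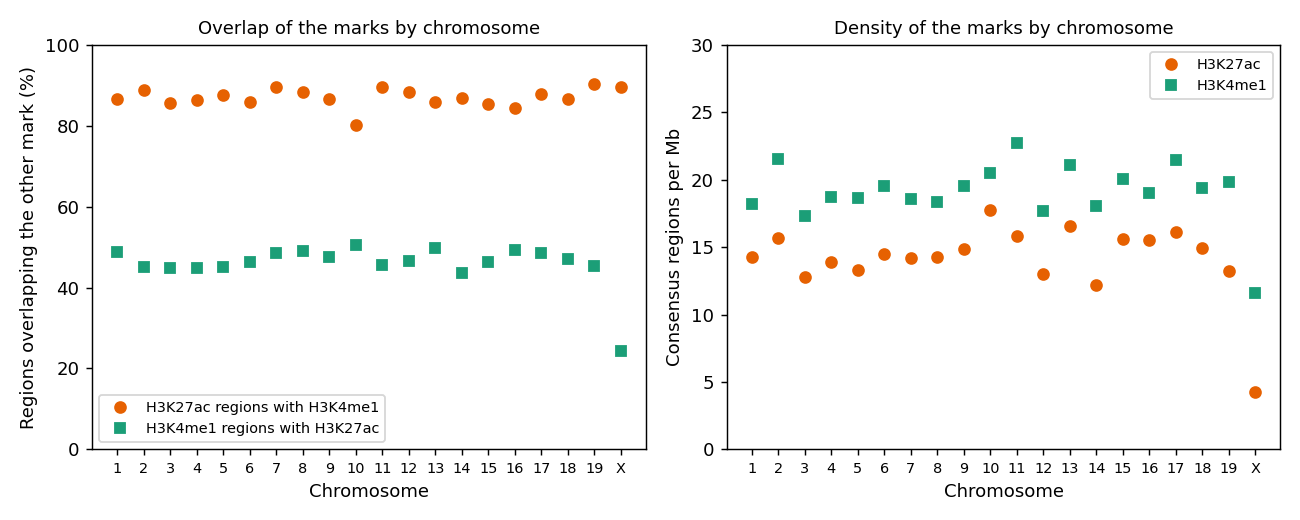
Left, share of H3K27ac regions with H3K4me1 and of H3K4me1 regions with H3K27ac (%) on each chromosome; right, consensus regions of each mark per Mb. On X, 24.4% of H3K4me1 regions had H3K27ac, below all 19 autosomes, and H3K27ac was at 4.23 regions per Mb.

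IRF8 peaks were concentrated in acetylated chromatin of either class. Density was counted as peak midpoints per Mb of a class, with 164.3 Mb in stretches with both marks, 5.81 Mb in H3K27ac-only regions and 90.6 Mb in H3K4me1-only regions. Adult IRF8 libraries 1, 2 and 3 had 86.1, 133.8 and 69.5 peaks per Mb with both marks, 82.0, 146.4 and 67.8 per Mb in H3K27ac-only regions, and 15.7, 35.9 and 18.6 per Mb in H3K4me1-only regions. In each of the 3 libraries the H3K4me1-only class was the lowest, while the 2 acetylated classes were close together. At P14 the values were 41.1, 86.2 and 36.9 with both marks, 26.1, 80.3 and 27.3 with H3K27ac only, and 5.46, 18.6 and 5.73 with H3K4me1 only. The 4 P9 libraries, with 1168 to 2068 peaks each, had 6.02 to 10.8 per Mb with both marks, 1.55 to 4.99 with H3K27ac only (9 to 29 peaks) and 0.60 to 1.32 with H3K4me1 only.

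Over the 10 microglial IRF8 libraries, the density with both marks exceeded that in H3K4me1-only regions by 2.71 ± 0.57 on the log2 scale (SD, n = 10), a factor of 6.52, in 10 of 10 libraries (exact sign-flip permutation test, two-sided, p = 0.00195, the smallest possible, adjusted p = 0.00293 over 3 comparisons). H3K27ac-only regions exceeded H3K4me1-only regions by 2.02 ± 0.28, a factor of 4.07, in 10 of 10 libraries (the same exact test, p = 0.00195, adjusted p = 0.00293). The size of this difference depended on the measure: it was 0.59 on the log2 scale as the share of regions with a peak, 0.45 when at least 50% of a region had to be covered by the other mark, and 1.34 beyond 1 kb of a start. Both marks exceeded H3K27ac only by 0.68 ± 0.70, a factor of 1.60, in 9 of 10 libraries (the same exact test, adjusted p = 0.0117). This last difference had no stable sign, since it was -0.01 over the 3 adult libraries, where an exact p cannot go below 0.25, and -0.76 with H3K27ac regions of −log10 p of at least 10, whereas it was 2.94 as the share of regions with a peak. Counted over the H3K27ac bases of regions with both marks instead of the whole stretch, an alternative chosen after the densities were seen, it was 1.70 ± 0.76 (exact sign-flip test over the 10 libraries, adjusted p = 0.00195), and the adult ratios were 2.11, 1.73 and 1.96. The classes made without 1 histone library gave 1.72 (without H3K27ac library 1), 1.02 (without H3K27ac library 2) and 1.38 (without H3K4me1 library 2) for both over H3K27ac only, and H3K27ac only over H3K4me1 only was 1.05 without H3K27ac library 1. By age the ratio of both over H3K27ac only, over whole stretches, had a mean of 1.41 ± 0.39 (SD) in the 4 P9 libraries, 0.39 ± 0.28 in the 3 of P14 and -0.01 ± 0.11 in the 3 of adults. P9 and adults differed by -1.42, which did not pass after adjustment over 9 comparisons (two-sided permutation of the library labels, exact p = 0.0286, adjusted p = 0.0643, where 0.0286 is the lowest that 4 against 3 allow). The libraries of an age share a control, age and control cannot be told apart, and adult library 3, the only one of its labelled batch, had 39.8% of its peaks outside all 3 classes, against 5.81% and 12.02% in the other adult libraries.

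**Figure D5:**
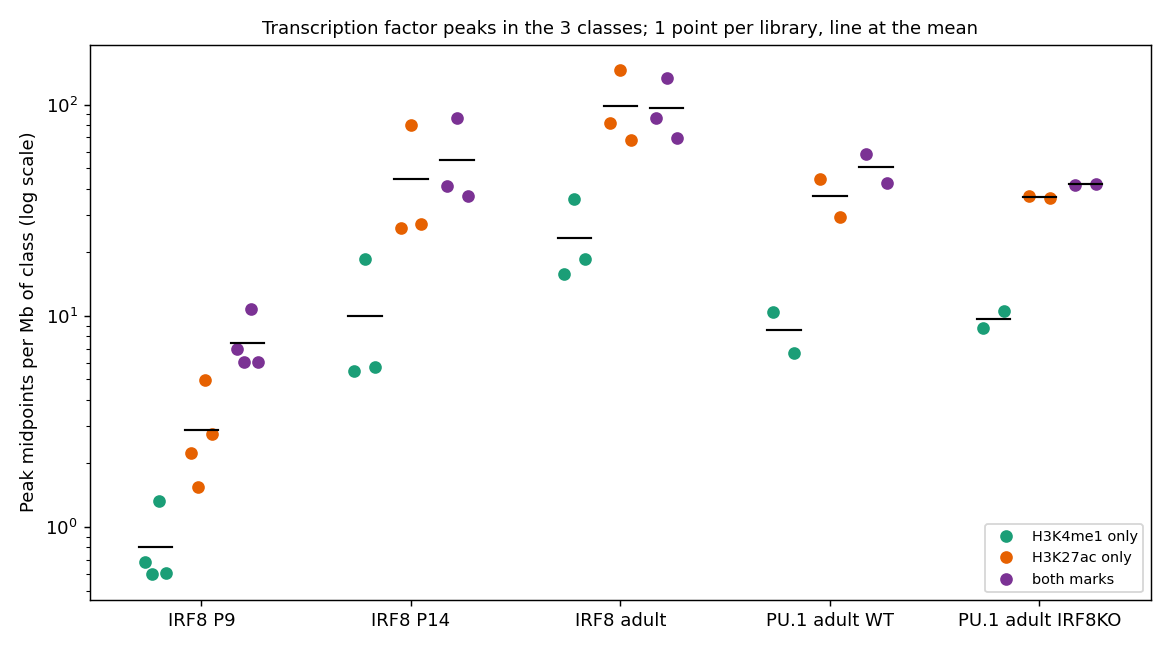
Peak midpoints per Mb of chromatin in each class (log axis) for IRF8 at P9, P14 and in adults and for PU.1 in WT and IRF8KO adults. Each point is 1 library and each line the mean; the H3K4me1-only class was lowest in every library shown, from 0.60 to 35.9 per Mb.

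PU.1 was likewise lowest in H3K4me1-only regions, and in all 4 libraries it was higher with both marks than with H3K27ac only. WT libraries 1 and 2 had 58.4 and 42.7 PU.1 peaks per Mb with both marks, 44.5 and 29.4 in H3K27ac-only regions and 10.5 and 6.70 in H3K4me1-only regions. IRF8KO libraries had 41.8 and 42.0, 37.0 and 36.1, and 8.80 and 10.5 per Mb. With 2 libraries per genotype the values are given without a test. As shares of regions, 32.7% and 25.1% of H3K4me1 regions with both marks held a WT PU.1 peak against 3.39% and 1.97% of H3K4me1-only regions, which are narrower. For IRF8, in the strongest of the 5 groups of H3K4me1 regions, 57.1%, 73.6% and 49.1% of regions with both marks and 18.1%, 32.0% and 15.0% of H3K4me1-only regions held an IRF8 peak in adult libraries 1, 2 and 3. Within that group the regions with both marks were wider (median 6404 bp against 3613 bp), and the part of width and remaining strength in these shares was not tested. At starts, IRF8 peaks in adult library 1 were at 54.8% of genes with both marks, 40.2% with H3K27ac only, 13.0% with H3K4me1 only and 2.35% with neither. The values were 74.3%, 61.8%, 24.5% and 4.34% in library 2 and 37.7%, 29.0%, 11.3% and 2.74% in library 3.

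DNA words were counted in each class. The PU.1-type ETS word GAGGAAGT (both strands, 500 bases around the region centre) was in 7.89% of H3K27ac regions with both marks, 5.10% of H3K27ac-only regions, 5.97% of H3K4me1 regions with both marks and 5.29% of H3K4me1-only regions, against 4.33% of the same windows around all protein-coding gene starts. In single lists the H3K27ac values were 7.31% and 7.22% with both marks and 4.61% and 3.82% alone, so the difference exceeded the spread of the 2 libraries. The composite ETS-IRF word was in 7.04%, 6.03%, 6.41% and 6.29% of the 4 sets in the same order, against 4.24% around gene starts. The AP-1 word TGANTCA was in 14.6%, 14.5%, 14.4% and 14.9%, against 9.58%. Each of these words was thus rarer around gene starts than in any set. Most regions lay away from starts, so windows around starts are not a matched background for them. At starts, the ETS word CCGGAAGT typical of CpG-rich promoters was in 9.51% of H3K27ac-only regions within 1 kb of a start, 6.59% of H3K27ac regions with both marks, 3.24% of H3K4me1 regions with both marks and 1.86% of H3K4me1-only regions there, against 5.88% around all gene starts. Region centres lie at different distances from the start in these sets, with medians of 185, 240, 407 and 389 bp.

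In IRF8KO microglia the marks were listed more often at regions with both marks, which are wider. H3K27ac was listed at 66.4% and 29.8% of WT H3K27ac regions with both marks and at 37.8% and 9.10% of H3K27ac-only regions in KO libraries 1 and 2, which had 14.7 and 8.57 M fragments. At WT H3K4me1-only regions KO H3K27ac was listed at 27.2% and 7.56%, beside the 27.4% and 17.5% listed in the single WT libraries. KO H3K4me1 was listed at 46.4% and 54.9% of H3K27ac-only regions and at 61.6% and 69.9% of H3K4me1-only regions, against 91.4% and 93.9% of H3K4me1 regions with both marks. Per Mb the order was not the same: KO H3K27ac regions numbered 203.1 and 80.5 per Mb with both marks, 266.3 and 67.4 in H3K27ac-only and 87.5 and 22.3 in H3K4me1-only regions, and KO H3K4me1 regions 147.9 and 151.9, 170.5 and 185.6, and 160.4 and 175.1 per Mb. The consensus was made from the WT lists, so these shares describe the classes and do not compare the genotypes.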

How the data were processed

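CUT&RUN was done in sorted microglia with reads of 35 nt in pairs, 30 min of digestion in 3 mM calcium and 13 PCR cycles, per the labels' protocols. The submitters' processing notes name bcl2fastq, Trim Galore, Bowtie2, deepTools, MACS2 and build mm10, with no role given. Each library has its own list, for which the authors ran MACS 2.2.6 (histone marks) or 2.2.7.1 (IRF8 and PU.1) against an IgG control, per the file headers, and all 4 WT histone libraries share 1 control of 18.5 M fragments. H3K27ac used q 0.01 and a gap of up to 640 bp. H3K4me1 used broad regions of at least 1000 bp at p 0.01 with a weak threshold of p 0.1. PU.1 replicate 2 used q 0.05 and another control. Deposited with each region are the pileup signal, the −log10 p-value and the fold enrichment ratio, per the file headers, which were used here only to describe, rank or filter within a list. Reads were not used, so depth is the fragment number of the headers, and regions of a library are not replicates, so region shares carry no interval.

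Regions repeated for several summits were used once. Annotation was GENCODE vM21 on GRCm38.p6 (54327 start positions of protein-coding transcripts), and all region ends lie within its chromosomes. Promoter sequences came from the RefSeq table of GRCm38.p6, which held 134 of 186 matched list genes. Overlaps, densities and exact tests were computed in Python 3.11.15 with numpy 2.4.6 and pandas 2.3.3 and tested on simulated regions, and 0.5 was added to each peak number before a log2 ratio. Named genes were all members of 14 lists, the 5 strongest regions per class within 100 kb of a named gene start and the 10 genes with the most single-mark regions. Members and lists were chosen with earlier results of these data known. The lists of peritoneal macrophages were not used. Some list members are counted but not reported here by name.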

Additional observations from a re-analysis of the deposited data

Results flagged for a closer look

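Among the 4 P9 IRF8 libraries, library 3 stood apart in 2 of 7 measures tested, by the gap to the nearest of the others relative to the whole range of the group. Its density in H3K4me1-only regions was 1.32 peaks per Mb, the highest, against 0.60 to 0.68 in the other libraries. Its log2 ratio of the density with both marks to that in H3K4me1-only regions was 3.03, the lowest, against 3.30 to 3.34. Library 3 also had the most peaks, 2068 against 1168 to 1365, and the most fragments, 20.9 M against 13.4 to 18.4 M, and the part of depth in these values was not tested. Chance alone sets such a library apart in about 1 in 20 groups, and the measures share the same peak numbers.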

How the results depend on the processing

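No paired analysis was possible because the overlap results come from no test and nothing in the labels ties same-numbered libraries to 1 animal; by number, the share of H3K27ac regions with H3K4me1 was 74.7% and 63.8%, and that of H3K4me1 regions with H3K27ac 34.7% and 24.8%. The causes of the changes below were not tested. Leaving out 1 histone or IRF8 library gave ranges of 63.5% to 90.5% and 19.7% to 60.7% for these shares, -10.3 to -0.70 and -9.70 to -1.80 percentage points for the start difference of H3K27ac and H3K4me1 (only minus both), 0.44 to 0.56 and 0.39 to 0.60 for their width ratios, and log2 IRF8 densities of 2.63 to 3.73 (both over H3K4me1 only), 0.55 to 1.72 (both over H3K27ac only) and 1.05 to 2.96 (H3K27ac only over H3K4me1 only).

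In the order of these results, bases shared by both libraries gave 81.1%, 42.2%, 2.22, -4.32, 0.45 and 0.43. Defining a single mark as absence from both single libraries, with regions that had the other mark in 1 library removed from the classes and the denominators, gave 93.8%, 58.3%, -10.9, -3.95, 0.53 and 0.52. H3K27ac of −log10 p of at least 10 gave 96.7%, 24.2%, 18.1, -1.77, 0.47 and 0.50. The strongest 50% of each list gave start differences of 20.2 and 1.33 and an H3K4me1 width ratio of 0.60. Lists of equal length gave 57.7% for H3K4me1, start differences of 1.27 and 0.59 and a ratio of 0.62. Cover of at least 50% gave 18.7%, -1.66, 0.90 and 0.75. Starts of all annotated transcripts gave -5.18 and -3.60, a limit of 2.5 kb -6.96 and -7.39, and any overlap of the start window -6.99 and -15.9. H3K4me1 of −log10 p of at least 2, chosen after seeing the data, gave 79.8%, 64.1%, 5.65, 2.38 and 0.62. The IRF8 ratio of both over H3K27ac only was 0.16 with shared bases, 0.45 with equal lengths, 0.25 with the H3K4me1 limit of 2, -0.76 with the H3K27ac limit of 10, -0.46 with the strongest 50% and -0.0092 in adults alone; it was higher as the share of regions with a peak (2.94), with absence from both libraries (2.03), beyond 1 kb of a start (1.45) and with 50% cover (1.30). H3K27ac only over H3K4me1 only was 0.59, 1.53, 1.34 and 0.45 in the same order. Adults alone gave 2.08 and 2.09 for the other ratios, where 3 libraries cannot reach an exact p below 0.25.

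Both start differences and this IRF8 ratio changed sign, and the share of H3K4me1 regions with H3K27ac lay on either side of 50% under the alternatives run. The other IRF8 ratios did not change sign, but their sizes did. Lists called at a stated threshold limit what a missing mark means, and KO H3K27ac library 2 had the fewest histone fragments.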
